A study of Mus musculus with 847 samples.

Results

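Collagens are the triple-helical proteins that give the extracellular matrix its fibrils, sheets and filaments. The collagen genes were taken as every gene whose symbol is Col, a number, the letter a and a number (Col1a1, for example), and 44 of the 21076 genes in the count table carried such a symbol. They were grouped as 11 fibrillar chains (types I, II, III, V, XI, XXIV and XXVII), 8 chains of basement membranes (the 6 type IV chains, Col15a1 and Col18a1) and 25 others. Their RNA was measured by bulk mRNA-seq in libraries of 15 brain regions from 59 mice of the C57BL/6JN strain, for which the labels name no allele and no treatment. Groups of 5 females and 5 males were taken at 3, 12, 15 and 18 months of age and 5 females and 6 males at 21 months. The 5 mice of 26 months and the 3 mice of 28 months were all males. Each library is 1 region of 1 mouse, each region has 51 to 59 libraries, and the question put to the collagens was how their RNA differs between regions, ages and sexes.

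The deposited reads assigned to genes ranged from 481444 to 26756735 per library, and the reads on collagen genes from 68 to 8075 (median 1688), so that the low collagens rest on a few reads in a shallow library. Levels are given as CPM, a gene's count divided by the library's total and scaled to 1000000 reads. The dissected regions were checked against their own mean profiles and against cell type markers. All but 19 libraries correlated best with the mean of the region on their label, and 8 of those 19 were posterior hippocampus libraries nearest to the anterior hippocampus. The entorhinal cortex library of mouse 52, a female of 21 months, went against its label, since it correlated with the mean medulla at 0.969 and with the mean entorhinal cortex at 0.821. Ttr, which the choroid plexus epithelium makes, had a median of 5464 CPM in the choroid plexus, 452 CPM in the corpus callosum, 240 CPM in the subventricular zone and at most 8.77 CPM in the other regions. The choroid plexus libraries also held neuronal and oligodendrocyte markers at summed medians of 4587 and 11958 CPM. In 25 libraries (18 of olfactory bulb, 4 of cerebellum, 2 of visual cortex and 1 of entorhinal cortex) the bone genes Bglap, Bglap2 and Ibsp summed to over 5 CPM. Some of the results that rest on those libraries are also given without them. The mouse numbers followed age: mice 1 to 15 were 12 or 26 months old, mice 16 to 56 were 3, 15, 18 or 21 months old and mice 57 to 59 were 28 months old. A block of numbers and the ages it holds cannot be told apart. Within mice 16 to 56 sex followed the numbers too, with males up to mouse 36 and females from mouse 37. At 3, 15, 18 and 21 months sex and the order of the numbers therefore cannot be told apart. Rises with age numbered 15 in mice 16 to 56 alone, against 28 in all mice. Only some of the calls that ended within those mice are named below.

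Fibrillar collagens form the cable-like fibrils of bone, skin and the coverings of the brain, where fibroblasts of the meninges and vessel walls are their main source. Type IV collagen, made by endothelial cells and pericytes, forms the sheet under the endothelium of every brain vessel, and type VI collagen forms beaded filaments around vessels and fibroblasts. Col25a1 and Col23a1 are single-pass membrane proteins, and Col25a1 and Col19a1 are known from neurons, where Col19a1 takes part in the formation of inhibitory synapses. In bulk tissue, fewer cells of a type and less RNA per cell cannot be told apart.

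The promoters of 4 genes that the results turn on are printed from RefSeq's gene starts on GRCm38.p6. Col3a1 and Col1a2 are fibril genes that had lower RNA in older mice, Col6a3 had higher RNA in older mice in 5 regions, and Col8a1 was highest in the choroid plexus. Each is the stretch just before the start, read along the gene's own strand, at chr1:45311288-45311537 (plus strand), chr6:4505368-4505617 (plus strand), chr1:90844002-90844221 (minus strand) and chr16:57754738-57754987 (minus strand), in that order. Capitals mark 3 motifs searched on both strands: the TATA box letters TATAAA, whose other strand reads TTTATA; the CCAAT box, whose other strand reads ATTGG; and the GC box letters GGGCGG, whose other strand reads CCGCCC. None of the marked matches overlaps another.
Col3a1: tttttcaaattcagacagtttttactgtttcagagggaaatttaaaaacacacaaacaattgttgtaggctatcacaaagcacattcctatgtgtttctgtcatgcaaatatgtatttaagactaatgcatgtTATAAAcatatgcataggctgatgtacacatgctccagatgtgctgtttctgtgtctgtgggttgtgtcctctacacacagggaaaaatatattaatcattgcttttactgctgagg
Col1a2: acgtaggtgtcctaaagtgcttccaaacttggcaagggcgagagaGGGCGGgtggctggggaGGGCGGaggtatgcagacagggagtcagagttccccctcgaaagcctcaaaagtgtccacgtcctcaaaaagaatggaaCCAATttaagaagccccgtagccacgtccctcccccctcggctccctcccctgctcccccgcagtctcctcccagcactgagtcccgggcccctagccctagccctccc
Col6a3: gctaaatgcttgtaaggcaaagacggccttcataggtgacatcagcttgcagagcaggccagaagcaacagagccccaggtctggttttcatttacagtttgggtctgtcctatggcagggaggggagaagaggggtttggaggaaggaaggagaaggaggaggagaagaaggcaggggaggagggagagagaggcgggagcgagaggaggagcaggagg
Col8a1: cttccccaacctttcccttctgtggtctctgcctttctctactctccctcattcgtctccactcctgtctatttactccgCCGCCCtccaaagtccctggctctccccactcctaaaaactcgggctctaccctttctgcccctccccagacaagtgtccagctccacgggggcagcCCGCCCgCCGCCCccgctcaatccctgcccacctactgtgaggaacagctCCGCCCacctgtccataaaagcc
Col3a1 held TATAAA 117 bases before its start, Col1a2 held CCAAT at 109 bases and GGGCGG at 188 and 205 bases. Col8a1 held CCGCCC at 23, 66, 73 and 170 bases, and none of these letters stood in the 220 bases of Col6a3. In windows from 250 bases before to 50 after a start, which the table held for 35 of the 44 genes, TATAAA stood in 5 of 38 collagen windows (13.2%) and in 13.6% of all 32851 windows. CCAAT stood in 13 (34.2%) against 37.4% of all windows, and GGGCGG in 23 (60.5%) against 35.7%. A match is a run of letters and not a shown binding site.

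Most collagen reads came from chains outside the fibrillar and basement membrane classes. Summed over the 44 genes, collagen reads came to a median of 239 CPM per library (108 to 1437). The fibrillar class held 19.2% ± 8.73 of them (median, SD over all libraries), the basement membrane class 18.3% ± 6.62 and the others 60.7% ± 11.1. Per kilobase of coding sequence, the scale on which genes can be compared, the mean of the region medians was highest for Col25a1 (9.38 CPM per kb), Col9a3 (9.35), Col6a1 (8.14) and Col23a1 (6.87). On that scale the leading fibrillar chain was Col1a2 (2.79), the leading basement membrane chain was Col4a2 (3.40), and Col3a1 lay at 0.525.

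Each collagen had its own regional order. The level in a region was tested against the mean of the other 14, with the age and sex of the mouse in the model (edgeR's quasi-likelihood test, Benjamini-Hochberg adjusted p below 0.05 over all genes). Of the 660 pairs of a collagen and a region, 266 were higher (40.3%, background 41.1% of all pairs of a gene and a region) and 280 were lower (42.4%, background 41.7%), which is close to the share over all genes. The olfactory bulb had 28 collagens higher and 12 lower (background 43.2% and 43.6%), the subventricular zone 24 and 12 (44.2% and 35.5%), and the hypothalamus 23 and 13 (43.4% and 40.1%). The caudate putamen stood at the other end, with 7 higher and 33 lower (39.1% and 44%), and the cerebellum had 16 higher and 24 lower (40.9% and 47.9%). The olfactory bulb held the highest median of 12 genes, and the cerebellum (12) and the caudate putamen (10) held the lowest median of most.

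**Figure D1:**
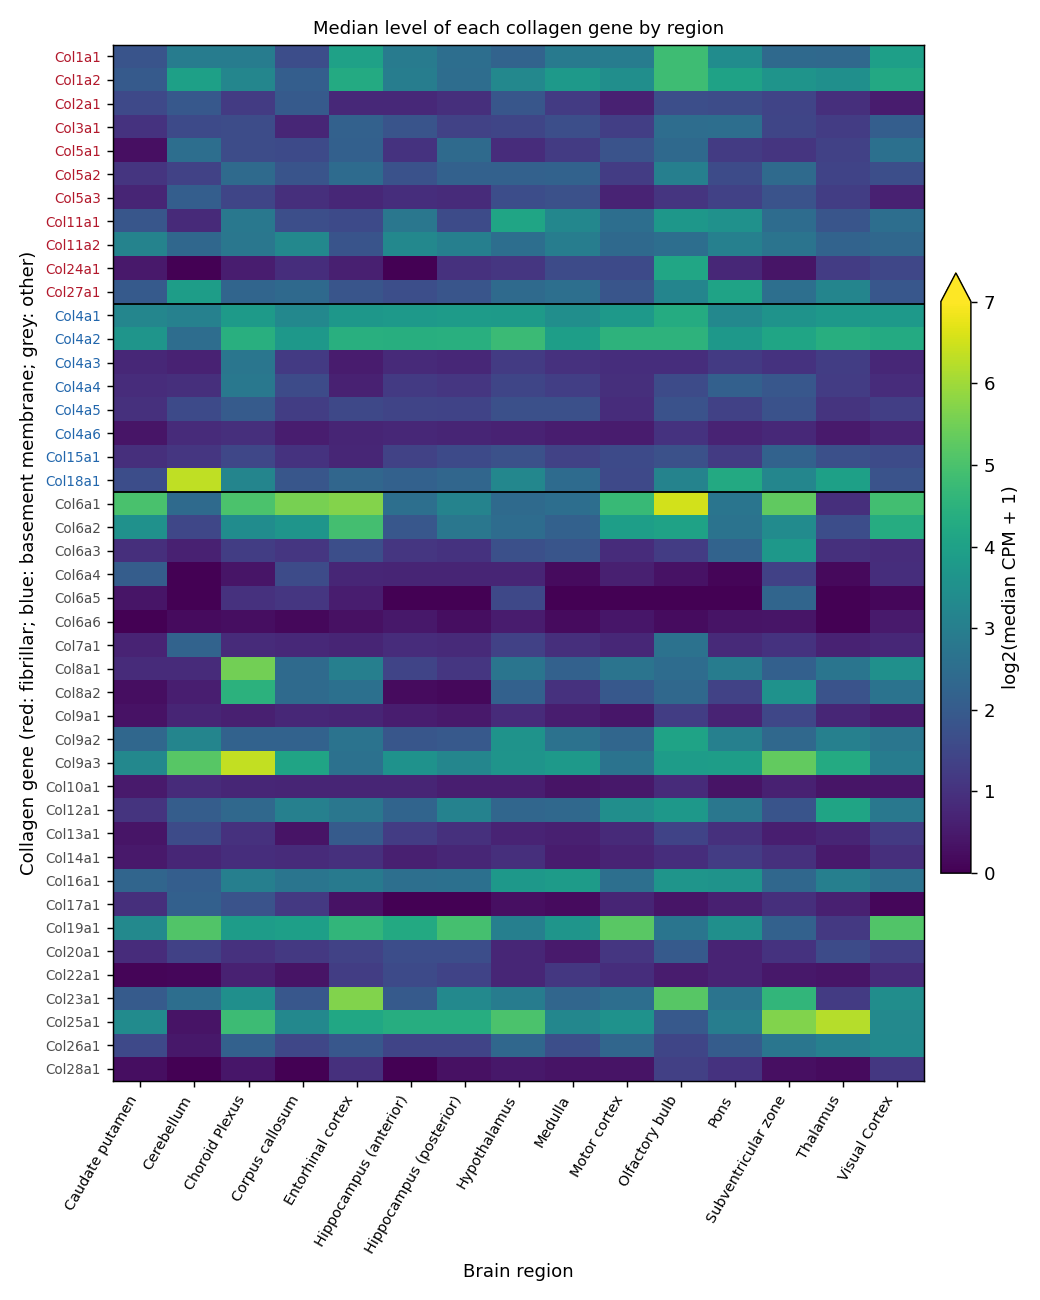
Heat map of the level of each of the 44 collagen genes (rows, grouped by class) in the 15 regions (columns), as log2 of the median CPM over the libraries plus 1. Single bright cells stand out in the row of Col18a1 (cerebellum, 79.1 CPM), Col24a1 (olfactory bulb, 16.8 CPM) and Col8a1 (choroid plexus, 44.9 CPM), while the row of Col4a1 is even.

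Among the fibrillar chains, Col24a1, a chain known from developing bone, was the most regional. It lay between 9.81 and 22.5 CPM in the olfactory bulb (median 16.8), while the next region, the medulla, ran from 0.701 to 7.77 CPM (median 2.06) and the median was 0 in the cerebellum and the anterior hippocampus. No medulla library reached the lowest of the olfactory bulb, and the log2 difference from the mean of the other regions was 4.31 (SE 0.056). Col11a1, a minor chain of cartilage-type fibrils, led in the hypothalamus (7.87 to 34.5 CPM, median 16.2, log2 difference 1.75, SE 0.064) and was lowest in the cerebellum (0 to 6.14, median 0.779). Col1a1 and Col1a2, the chains of type I collagen, were highest in the olfactory bulb, at 9.72 to 626 CPM (median 27.4) and 12.4 to 402 CPM (median 27.2). Without the libraries over the bone limit they lay there at 9.72 to 55.9 CPM (median 20.0) and 12.4 to 44.5 CPM (median 22.1). The lowest regions stayed below those ranges, with a median of 2.13 CPM for Col1a1 in the corpus callosum (0.597 to 7.11) and of 2.98 CPM for Col1a2 in the caudate putamen (1.08 to 11.5). Col3a1, which forms fibrils together with type I in vessel walls and meninges, had medians between 0.689 CPM in the corpus callosum and 4.76 CPM in the pons.

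In the basement membrane class Col4a1 was the most evenly spread and Col18a1 the least. Col4a1, 1 of the 2 chains found in all vessels, had a median of 18.9 CPM in the olfactory bulb (9.58 to 26.4) and of 7.51 CPM in the cerebellum (1.74 to 12.3), a span of 2.52-fold over the 15 regions. Its partner Col4a2 ran from 26.2 CPM in the hypothalamus (17.8 to 39.7) to 4.71 CPM in the cerebellum (1.37 to 12.3). The counts were made without strand and the starts of Col4a1 and Col4a2 on chromosome 8 overlap, so reads there cannot be told apart. Col4a3, a chain known from the filter of the kidney, was highest in the choroid plexus (1.35 to 14.5 CPM, median 5.71). Its neighbour Col4a4, which starts 72 bases away on chromosome 1, had its highest median there too (1.12 to 12.2, median 5.97). Col18a1, whose cleaved end is endostatin, lay between 55.6 and 110 CPM in the cerebellum (median 79.1), 18.9 times the median of the other regions' medians. Every cerebellum library was above every pons library (3.68 to 34.2, median 17.9), the region next in order, and the log2 difference of the cerebellum from the mean of the others was 3.81 (SE 0.044). With Col18a1 the basement membrane class made up a median of 37.1% of the collagen reads of the cerebellum.

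Col25a1 had the highest median in the thalamus, Col19a1 in the motor cortex and Col23a1 in the entorhinal cortex. Col25a1, a neuronal membrane collagen whose shed part is found in amyloid plaques, had its highest median in the thalamus (19.8 to 131 CPM, median 73.3, log2 difference 2.73, SE 0.039) and its lowest in the cerebellum (0 to 5.01, median 0.303). It was also the collagen with the largest ratio to the other regions in the anterior hippocampus (12.2 to 26.4, median 19.7, ratio 1.94). Col19a1 was highest in the motor cortex (28.3 to 43.9 CPM, median 36.2, log2 difference 1.69, SE 0.038). Next came the visual cortex (22.3 to 46.9, median 33.6), the cerebellum (22.3 to 44.0, median 33.0) and the posterior hippocampus (19.0 to 40.4, median 29.5), and those 4 ranges overlapped. The thalamus, where Col25a1 led, had the lowest Col19a1 (0 to 7.53 CPM, median 1.25), below every motor cortex library. Col23a1, a membrane collagen, led in the entorhinal cortex (2.99 to 94.5 CPM, median 49.7, log2 difference 2.81, SE 0.066) and was at a median of 1.34 CPM in the thalamus. That wide range overlapped the range of every other region. Col26a1 led in the visual cortex (4.11 to 12.8 CPM, median 8.93, ratio 3.61), and Col16a1, which sits at the surface of fibrils, in the medulla (6.74 to 26.0, median 13.4, ratio 2.48).

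Col8a1, Col8a2 and Col9a3 had their highest medians in the choroid plexus. Col8a1 and Col8a2, short chains that build hexagonal networks, were highest in the choroid plexus, Col8a1 at 8.15 to 101 CPM (median 44.9, log2 difference 3.04, SE 0.10) and Col8a2 at 3.12 to 40.2 CPM (median 21.5). Col9a3, a chain that decorates cartilage-type fibrils, was highest there too (17.4 to 149 CPM, median 81.0), ahead of the subventricular zone (14.9 to 133, median 39.2) and the cerebellum (23.3 to 45.2, median 35.5), which overlapped it. These 3 genes moved with Ttr from library to library. On log2 levels, Pearson's r of Col8a1 with Ttr was 0.93 over the 57 choroid plexus libraries, 0.94 over 55 of the subventricular zone and 0.90 over 57 of the corpus callosum, where the libraries of a region share depth and dissection. The corpus callosum library of mouse 27 had 16910 CPM of Ttr, 121 of Col8a1 and 220 of Col9a3. Col6a3 was highest in the subventricular zone (2.39 to 28.5 CPM, median 12.4, ratio 10.8). Its partner chain Col6a1 had medians of 90.7 CPM in the olfactory bulb (73.8 to 115), 51.2 CPM in the entorhinal cortex (2.02 to 118) and 46.4 CPM in the corpus callosum (31.2 to 65.8). Col6a1 also had the largest ratio of any collagen in the corpus callosum and in the caudate putamen (9.14 to 78.0, median 31.0), and every thalamus library (0 to 5.89, median 0.907) was below every olfactory bulb library.

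Chains of 1 protein varied together across the libraries of a region to different degrees. Pearson's r of log2 levels was taken within each region over its 51 to 59 libraries, which share depth and dissection, and is given as a description. The median over the 15 regions was 0.79 for Col1a1 with Col1a2 (0.24 to 0.97) and 0.67 for Col6a1 with Col6a2 (0.25 to 0.89). It was 0.69 for Col8a1 with Col8a2 (0.29 to 0.96) and 0.43 for the vessel chains Col4a1 with Col4a2 (0.14 to 0.70). Lower medians were those of Col6a2 with Col6a3 (0.22) and Col9a1 with Col9a2 (0.13). With the summed CPM of the 12 fibroblast markers (none a collagen), the median r was 0.79 for Col1a2, 0.60 for Col1a1, 0.42 for Col3a1 and 0.18 for Col6a3.

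With age, collagens were called about as often as other genes, with rises and falls in every class. The slope of log2 RNA per month from 3 to 28 months was fitted in each region with sex in the model, for the genes with enough reads there. Of 551 pairs of a collagen and a region, 28 rose (5.08%, background 6.37%) and 30 fell (5.44%, background 5.1%), with 13 genes rising in at least 1 region, 16 falling in at least 1, and 17 doing neither. The median slope over the 551 pairs was -0.0011. Of the 155 fibrillar pairs, 8 rose and 16 fell, of the 111 basement membrane pairs 4 rose and 1 fell, and of the 285 others 16 rose and 13 fell. Calls came from 12 regions, led by 8 falls and 1 rise in the olfactory bulb (background there 9.01% lower and 7.78% higher) and 6 rises and 1 fall in the choroid plexus (background 9.28% lower and 11.5% higher). No collagen passed the threshold in the entorhinal cortex (background 0.186% higher and 0.0413% lower), the pons (4.62% and 1.07%) or the subventricular zone (4.85% and 3.67%).

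**Figure D2:**
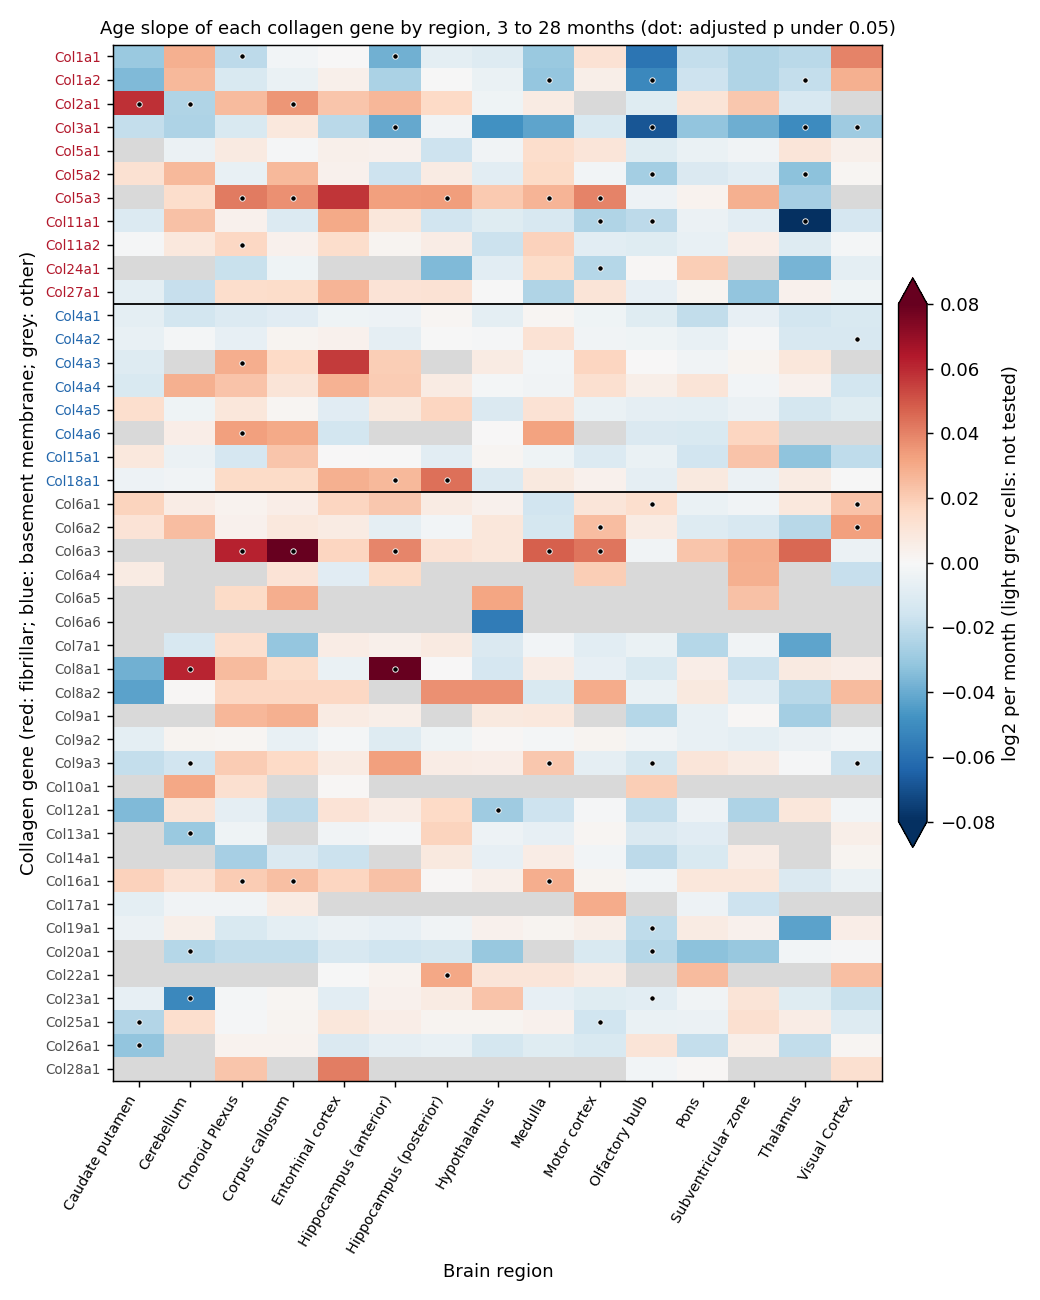
Heat map of the age slope (log2 per month, 3 to 28 months) of each collagen gene (rows) in each region (columns), where a dot marks an adjusted p below 0.05 and light grey a gene not tested in that region. The dots of Col6a3 and Col5a3 lie on rising cells in 5 regions each, and those of Col3a1 on falling cells in 4 regions.

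Among the type VI chains, Col6a3 rose in 5 of the 13 regions where it was tested. Col6a3, the longest of its chains, was at 0 to 2.47 CPM in the medulla at 3 months (median 1.72), and at 2.16, 3.10, 3.52, 3.52 and 3.94 CPM at 26 months and 4.23, 5.39 and 5.42 CPM at 28 months. All 3 mice of 28 months, and 32 of the 48 later libraries, lay above every library of 3 months, and the slope was 0.048 (SE 0.0074, adjusted p = 2.01e-06), or 2.28-fold over the 25 months. In the corpus callosum Col6a3 went from 0.142 to 1.45 CPM at 3 months (median 0.718) to 1.02, 1.39 and 9.02 CPM at 28 months. These groups overlapped, with 17 of 47 later libraries above all of 3 months, and the slope was the steepest of the 5 regions (0.091, SE 0.018, adjusted p = 0.000133). In the choroid plexus the values were 0 to 1.67 CPM at 3 months (median 0.972) and 1.70, 2.95 and 3.84 CPM at 28 months. They did not overlap, and the slope was 0.062 (SE 0.011, adjusted p = 2.63e-05). The 2 other regions were the motor cortex (0.043, SE 0.012, adjusted p = 0.00577) and the anterior hippocampus (0.039, SE 0.011, adjusted p = 0.0135). In males alone the adjusted p in the motor cortex was 0.172, and in mice 16 to 56 alone it was 0.329 in the anterior hippocampus.

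Among the other type VI chains, Col6a1 and Col6a2 rose in 2 regions each, and Col6a4, Col6a5 and Col6a6 were called in none of the 7, 4 and 1 regions where they were tested. Col6a2 in the visual cortex lay at 7.46 to 18.3 CPM at 3 months (median 13.3), at 20.5, 21.6, 27.6 and 28.7 CPM at 26 months and at 24.7, 25.0 and 33.1 CPM at 28 months. Neither of the oldest groups overlapped the youngest, and the slope was 0.033 (SE 0.0069, adjusted p = 0.000803, 1.76-fold over 25 months). In the motor cortex Col6a2 went from 8.75 to 14.6 CPM (median 10.8) to 13.6, 19.4 and 20.1 CPM at 28 months. Of the 49 later libraries 26 were above all of 3 months, and the slope was 0.025 (SE 0.0039, adjusted p = 3.17e-06). Col6a1 rose in the olfactory bulb, its highest region, from 73.8 to 97.2 CPM at 3 months (median 81.3) to 102, 113 and 115 CPM at 28 months, without overlap. The 26-month values (90.1, 90.1, 91.1, 91.5 and 103) lay mostly within the youngest range. That slope was among the smallest called and among the most precise (0.014, SE 0.0020, adjusted p = 1.06e-06, 1.27-fold). Col6a1 also rose in the visual cortex, from 18.4 to 35.5 CPM (median 24.0) to 42.3, 47.1 and 47.7 CPM (slope 0.023, SE 0.0065, adjusted p = 0.0148), where the adjusted p was 0.0518 without mouse 17.

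**Figure D3:**
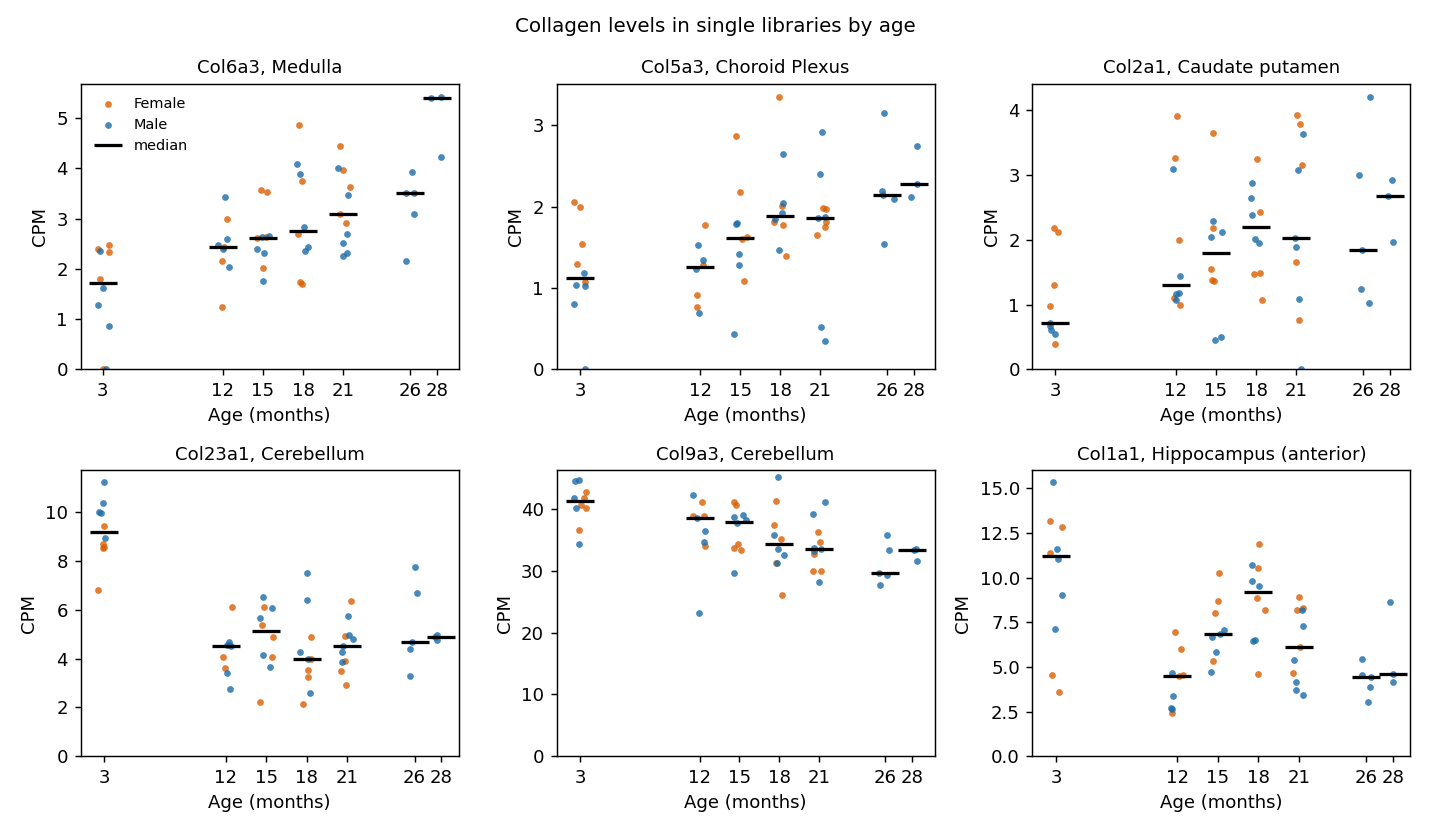
Level (CPM, linear axis from 0) of 6 collagens in single libraries by age in months, with the sexes in 2 colours and a bar at each age's median. The 28-month libraries of Col6a3 in the medulla (4.23, 5.39 and 5.42) lie above all of 3 months, while Col23a1 in the cerebellum is already lower at 12 months.

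Among the fibrillar chains Col5a3, a minor chain of type V collagen, rose in 5 regions. In the choroid plexus it lay at 0 to 2.06 CPM at 3 months (median 1.13) and at 2.12, 2.28 and 2.75 CPM at 28 months. These groups were just apart, and the 26-month values were 1.54, 2.09, 2.14, 2.19 and 3.15 CPM. The slope was 0.042 (SE 0.0087, adjusted p = 0.000419, 2.06-fold over 25 months). In the medulla it went from 0 to 2.64 CPM (median 2.26) to 3.83, 4.32 and 4.64 CPM at 28 months, also without overlap. The 26-month values there (2.16, 2.33, 2.66, 3.24 and 3.69 CPM) overlapped the youngest range (slope 0.027, SE 0.0074, adjusted p = 0.00937). The corpus callosum (0.036, adjusted p = 0.0157), the motor cortex (0.040, adjusted p = 0.0219) and the posterior hippocampus (0.033, adjusted p = 0.0466) had slopes of like size at levels near 1 CPM. The call in the posterior hippocampus was lost when any of 13 of the 18 mice of 3, 26 or 28 months was left out. The motor cortex call was lost without mouse 14 (adjusted p = 0.0561) or mouse 59 (0.0691), and in mice 16 to 56 alone the medulla had an adjusted p of 0.433. Col2a1, the main collagen of cartilage, rose in the caudate putamen from 0.393 to 2.18 CPM at 3 months (median 0.714) to 1.96, 2.68 and 2.92 CPM at 28 months. The groups overlapped by 1 library, and the slope was 0.058 (SE 0.013, adjusted p = 0.000979, 2.74-fold). Col2a1 rose in the corpus callosum as well (0.035, SE 0.0093, adjusted p = 0.00432, and 0.111 in males alone). There it lay at 0.76 to 2.69 CPM at 3 months (median 1.42) and at 1.41 to 6.34 CPM at 12 months (median 3.50), in overlapping ranges. Col2a1 fell in the cerebellum (-0.024, SE 0.0082, adjusted p = 0.0322), a call that was lost without any of 7 mice.

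Of the 16 fibrillar falls, 4 were of Col3a1, 3 of Col1a2 and 2 of Col1a1. Col3a1 had a slope below 0 in 14 of 15 regions. In the thalamus it lay at 1.55 to 4.46 CPM at 3 months (median 2.26), at 0.219, 0.495, 0.699, 0.945 and 3.21 CPM at 26 months and at 0.775, 0.796 and 1.54 CPM at 28 months. Every library of 28 months and 35 of the 49 later libraries were below all of 3 months (slope -0.050, SE 0.012, adjusted p = 0.00706, 0.419-fold over 25 months), and in males alone the adjusted p was 0.159. In the anterior hippocampus Col3a1 went from 0.447 to 6.71 CPM (median 3.50) to 0.762, 0.92, 1.14, 1.46 and 1.48 CPM at 26 months and 1.91, 3.19 and 3.61 CPM at 28 months, all inside the youngest range. The slope was -0.041 (SE 0.011, adjusted p = 0.0082). Without mouse 17 its adjusted p there was 0.0724, and in the visual cortex (slope -0.029, adjusted p = 0.0133) it was 0.0825 without the same mouse. Col1a1 in the anterior hippocampus was at 3.57 to 15.4 CPM at 3 months (median 11.2), at 2.41 to 6.96 CPM at 12 months (median 4.48) and at 4.17, 4.60 and 8.64 CPM at 28 months. The slope was -0.038 (SE 0.0082, adjusted p = 0.000785, 0.514-fold), it was called in each of 11 other settings and without each of 18 mice, and the oldest libraries overlapped the youngest. Col1a2 fell in the medulla from 7.91 to 34.2 CPM (median 15.3) to 4.70, 6.96 and 9.43 CPM at 28 months (slope -0.031, SE 0.0085, adjusted p = 0.0107). Its 26-month values (8.65, 9.11, 10.7, 11.1 and 17.7 CPM) lay within the youngest range. The call was lost without mouse 29, whose value was the 34.2 CPM (-0.022, adjusted p = 0.0867).

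Col11a1 fell in 3 regions, the thalamus, the motor cortex and the olfactory bulb, while Col11a2, the other type XI chain in the table, fell in none and rose in the choroid plexus. Col11a1 in the thalamus lay at 0.468 to 13.3 CPM at 3 months (median 4.54), at 0.219, 0.963, 0.991, 1.55 and 11.0 CPM at 26 months and at 1.33, 1.55 and 2.20 CPM at 28 months. The oldest libraries lay within or below the youngest range, and the slope was -0.080 (SE 0.017, adjusted p = 0.00152, and 0.145 in males alone). In the motor cortex it went from 4.64 to 7.68 CPM (median 5.26) to 2.83, 2.94 and 3.81 CPM at 28 months, below all of 3 months. The 26-month values (4.82, 5.00, 5.13, 5.64 and 6.25 CPM) lay within the youngest range. Of the 49 later libraries 24 were below and 4 above all of 3 months (slope -0.024, SE 0.0072, adjusted p = 0.0146, 0.662-fold). Col5a2, a type V chain, fell in the thalamus (-0.033, adjusted p = 0.0217), where the call was lost without mouse 25, 29 or 41.

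In the olfactory bulb, the falls of Col3a1 and Col1a2 were not called once the libraries that held bone genes were left out. Col3a1 was at 3.35 to 24.4 CPM at 3 months (median 9.87) and at 4.16, 4.66 and 5.30 CPM at 28 months, within the youngest range. Its slope was -0.068 (SE 0.011, adjusted p = 1.06e-05), and that of Col1a2 was -0.052 (SE 0.018, adjusted p = 0.035). Libraries above the bone limit numbered 5 of 10 at 3 months, 2 to 4 at each age from 12 to 21 months, 1 of 5 at 26 months and 0 of 3 at 28 months. In them Col1a1 lay at 47.9 to 626 CPM (median 84.0), and in the other olfactory bulb libraries at 9.72 to 55.9 CPM (median 20.0). Col3a1 differed by age among the libraries above the limit, at 11.2 to 24.4 CPM at 3 months and 3.17 to 9.34 CPM at the later ages. The library of mouse 46, with the highest bone gene sum (111 CPM), had 7.33 CPM of Col3a1. Without the 25 libraries Col3a1 had a slope of -0.011 (adjusted p = 0.601) and Col1a2 of -0.0033 (adjusted p = 0.87). Of 11 other settings, Col3a1 was called in the 10 that kept those libraries, and Col1a2 was called in 5 of 11. Of the 8 falls in the olfactory bulb only that of Col19a1 was still called without them. That fit also lost 5 of the 10 libraries of 3 months, and how much the smaller number of libraries weighed was not tested. Over all regions the 28 rises and 21 of the 30 falls were called without those libraries. All 58 called slopes kept their sign in every other setting, this one included.

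**Figure D4:**
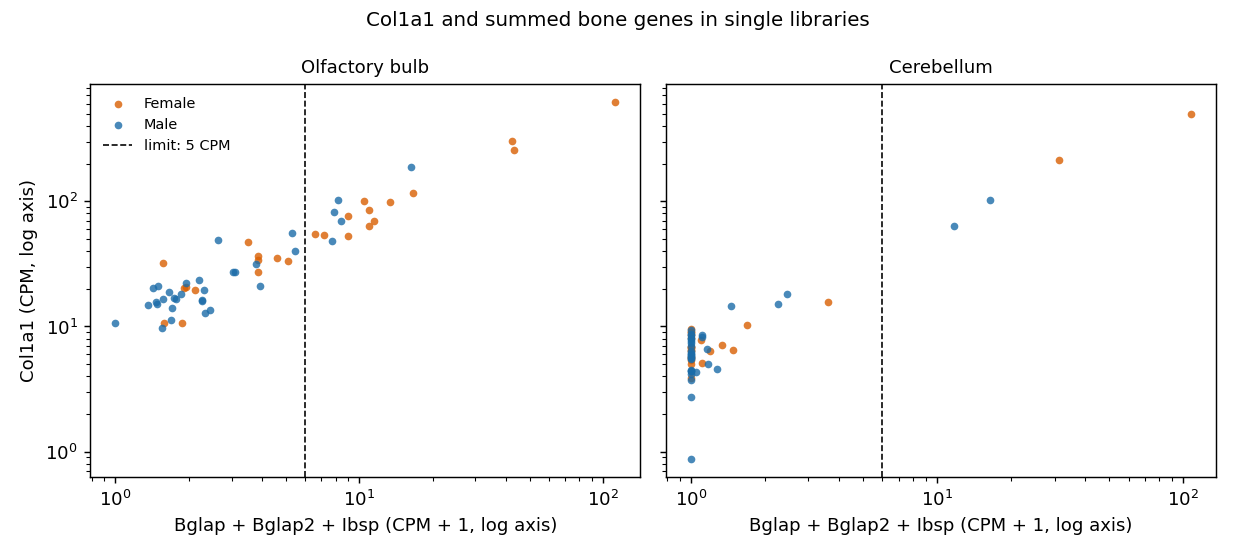
Col1a1 (CPM, log axis) against the summed bone genes Bglap, Bglap2 and Ibsp (CPM + 1, log axis) in each library of the olfactory bulb and the cerebellum, with a dashed line at the limit of 5 CPM. The libraries over the limit reach 626 CPM of Col1a1 in the olfactory bulb and 501 CPM in the cerebellum.

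Of the 4 transmembrane chains, Col23a1 and Col25a1 fell in 2 regions each and Col13a1 in 1, and Col17a1 was called in none of the 7 regions where it was tested. Col25a1 had a slope above 0 in 9 of 15 regions. Col23a1 in the cerebellum lay at 6.82 to 11.3 CPM at 3 months (median 9.20), at 2.74 to 6.11 CPM at 12 months (median 4.52), at 3.30, 4.41, 4.68, 6.67 and 7.73 CPM at 26 months and at 4.76, 4.89 and 4.98 CPM at 28 months. Of the 48 later libraries 46 were below every library of 3 months, and the slope was -0.052 (SE 0.0064, adjusted p = 3.75e-09, 0.409-fold over 25 months). The median at 12 months was already below the values of 28 months. Col25a1 fell in the caudate putamen from 8.33 to 20.3 CPM (median 11.8) to 5.89, 7.84 and 9.74 CPM at 28 months, which overlapped (slope -0.024, SE 0.0057, adjusted p = 0.0027). In the motor cortex it went from 10.3 to 16.7 CPM (median 12.2) to 6.50, 7.28 and 8.93 CPM at 28 months, without overlap. The 26-month values there (7.84, 8.67, 10.4, 11.2 and 11.6 CPM) overlapped the youngest range (slope -0.016, SE 0.0044, adjusted p = 0.00662). The call of Col23a1 in the cerebellum and both calls of Col25a1 held in each of 11 other settings and without each of 18 mice. Col13a1 in the cerebellum was called in 5 of 11 other settings and in 3 of the 18 fits that left out a mouse. For Col23a1 in the olfactory bulb these numbers were 4 of 11 and 8 of 18.

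Col9a3 was called in both directions, as was Col2a1. In the cerebellum it went from 34.4 to 44.7 CPM at 3 months (median 41.3) to 31.6, 33.4 and 33.5 CPM at 28 months, all below the youngest range (slope -0.015, SE 0.0025, adjusted p = 4.54e-06, 0.765-fold). In the medulla it went the other way, from 9.62 to 13.4 CPM (median 10.3) to 13.0, 18.4 and 18.5 CPM (slope 0.021, SE 0.0046, adjusted p = 0.000713, 1.45-fold). It also fell in the olfactory bulb (-0.014, adjusted p = 0.00676, lost without the bone-limit libraries) and the visual cortex (-0.017, adjusted p = 0.0156, and 0.0573 without mouse 53). Col16a1 rose in 3 regions, most in the medulla, where it was at 6.74 to 16.7 CPM at 3 months (median 10.9) and at 13.9, 23.8 and 25.8 CPM at 28 months. Those groups overlapped by 1 library, and the 26-month values were 11.7, 13.1, 13.6, 14.0 and 19.2 CPM. The slope was 0.029 (SE 0.0069, adjusted p = 0.0021, and 0.203 in mice 16 to 56 alone). Col8a1 had the steepest rise, in the anterior hippocampus (0.10, SE 0.025, adjusted p = 0.00365). It lay at 0 to 3.36 CPM at 3 months (median 1.17), 0.728, 0.762, 0.941, 2.13 and 31.5 CPM at 26 months and 1.69, 2.79 and 4.63 CPM at 28 months. The 31.5 CPM belong to mouse 5, whose library had 4032 CPM of Ttr and correlated best with the mean choroid plexus, and without it the slope was 0.047 (adjusted p = 0.126).

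The basement membrane class had few calls. Col4a1 was called in no region, with slopes between -0.020 and 0.0018, and Col4a2 fell in the visual cortex alone (-0.013, adjusted p = 0.017, and 0.075 without mouse 33). Col18a1 rose in the posterior hippocampus from 2.08 to 5.51 CPM at 3 months (median 3.10) to 4.37, 5.15 and 6.33 CPM at 28 months, groups that overlapped (slope 0.044, SE 0.010, adjusted p = 0.00263, 2.15-fold). With the summed endothelial markers as a covariate that slope was 0.027 (adjusted p = 0.16), and in males alone its adjusted p was 0.116. In the choroid plexus Col4a3 (0.029, adjusted p = 0.0356) and Col4a6 (0.033, adjusted p = 0.0159) rose, and both were lost with the endothelial covariate.

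The collagens that differed between 3 and 12 months were mostly lower. Each later age was compared with 3 months, with sex in the model, and the contrasts share the 3-month libraries. At 12 months 25 of 551 pairs were lower (4.54%, background 0.927%) and 4 were higher (0.726%, background 0.835%), and 15 of the 25 were fibrillar. Col1a2 in the anterior hippocampus went from 2.68 to 13.1 CPM at 3 months (median 10.2) to 1.13 to 8.30 CPM at 12 months (median 2.47), and the log2 difference was -1.50 (SE 0.21, adjusted p = 1.32e-05). Col1a1 (-1.39, adjusted p = 4.81e-06), Col3a1 (-1.38, adjusted p = 0.0037) and Col9a2 (-1.19, adjusted p = 0.00946) were lower in the same libraries. In the thalamus Col18a1 went from 9.47 to 19.6 CPM (median 15.3) to 3.95 to 12.0 CPM (median 8.95), with a log2 difference of -0.78 (SE 0.15, adjusted p = 0.00131). In the cerebellum Col27a1, a fibrillar chain of cartilage, went from 6.24 to 26.7 CPM (median 18.6) to 2.74 to 16.4 CPM (median 7.19), with a log2 difference of -0.91 (adjusted p = 0.00307). All of these ranges overlapped.

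The 25 pairs lay by region as 7 in the olfactory bulb (background 4.23% lower), 5 in the cerebellum (1.4%), 5 in the thalamus (2.45%), 4 in the anterior hippocampus (1.4%) and 4 in the subventricular zone (1.68%). Without the bone-limit libraries none of the 7 in the olfactory bulb and 3 of the 5 in the cerebellum were called, and all of those in the other 3 regions were. In males alone 8 of the 25 were called, and without mouse 29, a male of 3 months, the count over all pairs was 15. Summed leptomeningeal fibroblast markers moved with these values, from a median of 121 CPM (84.8 to 212) to 77.3 CPM (56.4 to 175) in the anterior hippocampus. In the thalamus they went from 59.6 CPM (40.5 to 103) to 43.3 CPM (35.5 to 82.7). Of 178 fibroblast marker pairs 7 were lower (3.93%) and 2 higher at 12 months. Vascular smooth muscle markers were lower in 5 of 66 pairs (7.58%), oligodendrocyte precursor markers in 10 of 60 (16.7%) and astrocyte markers in 5 of 60 (8.33%). Pericyte markers were lower in 3 of 105 (2.86%) and endothelial markers in 3 of 150 (2%), and none of these lists had a pair that was higher. Markers of choroid plexus epithelium (10 higher, 4 lower), microglia (6 and 0) and neurons (3 and 2) had more pairs higher than lower. The median r with the summed smooth muscle markers was 0.47 for Col1a1, 0.42 for Col1a2 and 0.44 for Col3a1 over the 15 regions. Their part in the result was not tested. Between 3 and 12 months the mouse number block changed as well, and it cannot be told apart from age.

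At the later ages the 25 pairs did not all keep a call. Their log2 difference from 3 months was below 0 in 23 pairs at 15 months, 24 at 18 and 21 months, 25 at 26 months and 21 at 28 months. At these ages 2, 6, 12, 6 and 3 of them were called lower. Over all 551 pairs, 4 were higher and 4 lower at 15 months (0.726% each, background 0.734% and 0.551%), and 6 higher and 10 lower at 18 months (1.09% and 1.81%, background 1.75% and 1.11%). At 21 months 17 were higher and 21 lower (3.09% and 3.81%, background 3.98% and 3.01%), and at 26 months 14 and 11 (2.54% and 2.00%, background 2.75% and 1.57%). At 28 months 20 were higher and 11 lower (3.63% and 2.00%, background 3.69% and 2.65%). Single mice moved these counts. Without mouse 37 there were 9 lower at 15 months. At 18 months there were 2 higher without mouse 53 and 6 lower without mouse 21. Without mouse 11 there were 7 lower at 26 months, and without mouse 57, 58 or 59 there were 6, 4 and 4 lower at 28 months. Of the 20 rises at 28 months 6 were in the medulla (background there 13.1% higher), among them Col6a3 (log2 difference 1.50), Col5a3 (1.06), Col16a1 (1.05) and Col4a2 (0.95). Over all genes in the medulla 11.8% were also lower at 28 months, against 2.89% higher and 0.666% lower at 26 months.

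**Figure D5:**
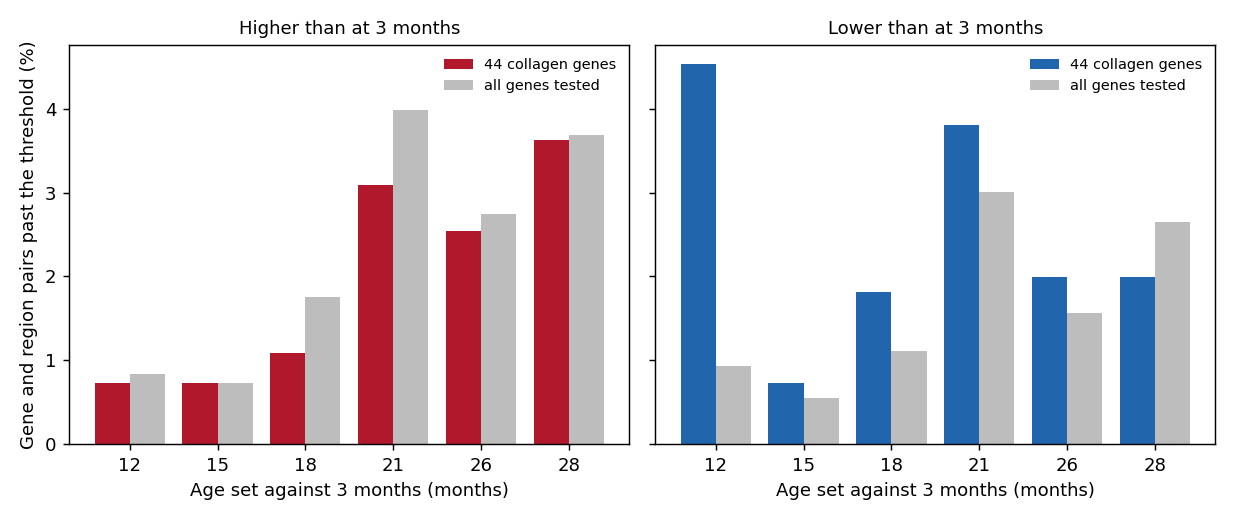
Share of pairs of a gene and a region (percent, axis from 0) that were higher or lower than at 3 months at each later age, for the collagens and for all genes tested. The lower bar of the collagens at 12 months (4.54%) is the one that stands farthest from that of all genes (0.927%).

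The slope was also fitted from 12 to 28 months. Of the 537 pairs tested from 12 to 28 months, 15 rose (2.79%, background 2.81%) and 6 fell (1.12%, background 1.62%), so that rises outnumbered falls among the collagens and among all genes. Col6a3 rose in the corpus callosum (0.115, SE 0.028, adjusted p = 0.00502), the choroid plexus (0.083, adjusted p = 0.00117) and the medulla (0.044, adjusted p = 0.00459). Col16a1 rose in the pons (0.048, adjusted p = 0.0051), the corpus callosum (0.039, adjusted p = 0.023) and the medulla (0.038, adjusted p = 0.0209). Col5a3 rose in the choroid plexus (0.050, adjusted p = 0.0207) and the medulla (0.039, adjusted p = 0.0207). Col11a1 in the thalamus (-0.13, adjusted p = 0.00292), Col19a1 in the thalamus (-0.10, adjusted p = 0.01) and Col1a2 in the medulla (-0.046, adjusted p = 0.015) fell. Without mouse 2 the falls numbered 11, and in males alone 7 pairs rose and 2 fell.

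The slope in a region was also tested against the mean slope of the other 14. Of 660 pairs 6 were higher (0.909%, background 0.899%) and 7 lower (1.06%, background 1.03%). Col11a1 in the thalamus had the smallest adjusted p, with a slope 0.076 per month below that mean (difference -0.076, SE 0.012, adjusted p = 1.01e-07). Lower differences were also called for Col2a1 in the cerebellum (-0.047, SE 0.0092, adjusted p = 0.000164) and Col5a3 in the thalamus (-0.053, SE 0.010, adjusted p = 0.000193). A higher slope was called for Col6a3 in the corpus callosum (0.062, SE 0.016, adjusted p = 0.0129, and 0.153 in males alone). Col11a1 in the entorhinal cortex was higher (0.058, SE 0.015, adjusted p = 0.00668), with the mouse as a block its adjusted p was 0.0516, and in males alone the difference was -0.0015. The library of mouse 52, the one nearest to the medulla, had 16.0 CPM there, and without it the slope within the region was 0.0013 in place of 0.030. Col3a1 and Col1a2 in the olfactory bulb (both -0.039) turned to 0.015 and 0.0087 without the bone-limit libraries.

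Males and females of 3 to 21 months differed in few collagens. Of 524 pairs 2 were higher in males (0.382%, background 1.38%) and 8 lower (1.53%, background 1.63%). Col1a1 in the olfactory bulb lay at 10.6 to 626 CPM in females (median 52.5) and at 11.3 to 187 CPM in males (median 20.4), ranges that overlapped (log2 difference -1.33, SE 0.32, adjusted p = 0.0126). The bone limit was passed by 13 of 25 female and 4 of 25 male libraries there, and with the summed bone genes as a covariate the difference was 0.0094. In the medulla (background 14.3% lower and 10.2% higher in males) Col4a2 lay at 6.79 to 29.6 CPM in females (median 15.6) and at 7.49 to 20.6 CPM in males (median 13.0; -0.38, SE 0.11, adjusted p = 0.0087). Col5a2 (-0.44, adjusted p = 0.0133) and Col16a1 (-0.31, adjusted p = 0.0203) were lower in males there too, and Col19a1 was higher (0.26, adjusted p = 0.0127). A slope that differed between the sexes was called for 1 of 524 pairs (0.191%, background 0.0623% lower and 0.00708% higher), Col1a1 in the cerebellum (-0.40 per month in males against females, SE 0.081, adjusted p = 0.00277). That difference was -0.0093 without the 4 bone-limit libraries of the cerebellum, which held 62.9 to 501 CPM of Col1a1 against 0.869 to 18.2 CPM in the rest.

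The genes that make, bind and degrade collagen were counted in the same test of the slope from 3 to 28 months. Of 431 pairs of 31 collagen-processing genes 34 rose (7.89%, background 6.37%) and 37 fell (8.58%, background 5.1%). P4ha1, a catalytic subunit of the prolyl hydroxylase that stabilises the triple helix, fell in 13 of 15 regions (slopes -0.023 to -0.010), and Serpinh1, the collagen chaperone of the endoplasmic reticulum, fell in 8 (-0.034 to -0.0099). P3h4, part of a complex that modifies procollagen, rose in 7 regions, Fkbp10, a folding enzyme of procollagen, in 6 and Lox, which cross-links collagen fibrils, in 4 (up to 0.081 in the corpus callosum). Among 10 collagen receptors 15 of 113 pairs rose (13.3%) and 4 fell (3.54%), and 11 of the 15 were Lair1, an inhibitory receptor of immune cells, while 33 of 60 microglia marker pairs rose as well. Of 131 pairs of collagen-degrading enzymes and their inhibitors 12 rose (9.16%) and 3 fell (2.29%), with Timp1, an inhibitor of matrix metalloproteinases, rising in 5 of 9 regions. The basement membrane partners had 11 rises (4.91%) and 9 falls (4.02%) in 224 pairs, both below the share over all genes, and Nid1, which links laminin to type IV collagen, fell in 4 regions. The small leucine-rich proteoglycans, which coat fibrils, had 7 and 7 in 105 pairs (6.67% each), with Aspn falling in 6 regions. Of 178 fibroblast marker pairs 11 rose (6.18%) and 1 fell (0.562%) over the same ages, and of 66 vascular smooth muscle pairs none rose and 11 fell (16.7%).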

How the data were processed

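The deposited file is 1 table of read counts per gene. Per the labels, the libraries were unstranded mRNA-seq of RNeasy RNA amplified by Smart-Seq2 and prepared with Nextera XT. The submitters' processing notes name Trim Galore 0.3.7, STAR 2.5.3a, DESeq2 and GRCm38, and the counting program is not given in the sources used here. The counts deposited by the authors were used unchanged in edgeR 4.0.16 (R 4.3.3), with trimmed-mean (TMM) normalization, edgeR's expression filter and the quasi-likelihood test, two-sided. P-values were adjusted by Benjamini-Hochberg over all genes of a region and contrast, and 0.05 was the threshold. Slopes and contrasts were fitted per region with sex as a covariate, and levels and slopes between regions in a joint model with age and sex. Alternatives to the joint model used the Wald form of the test. Replicates are different mice.

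Alternatives were DESeq2 1.42.0, its size factors, no filter beyond 1 read, males alone, mice 16 to 56 alone, depth or marker covariates, no bone-limit libraries, the mouse as a block, and leaving out each of 18 mice. Libraries of the same mouse number come from 1 animal, so the numbers pair the samples between regions. Their deviations correlated at a median of 0.0269 over the 105 pairs of regions (9768 genes). The median over mice was higher for the caudate putamen with the corpus callosum (0.243) and the subventricular zone (0.227), and for the corpus callosum with the subventricular zone (0.223). The members and lists were chosen with earlier results of these data known. The text names the 4 genes with most reads in each class, the leading gene of each region, up to 10 genes called with age in the most regions, any called both ways, up to 8 from 12 months on, and up to 5 by the smallest adjusted p in the tests of sex and of slopes between regions. Col9a2, Col27a1 and other genes named at 12 months, in the choroid plexus or in the pathway lists were chosen after their values were seen. The fit of the age slope was tested on counts simulated for the corpus callosum with the same spread for every gene, and the other fits were not tested in this way. Promoters are RefSeq's (GRCm38.p6) and coding lengths are unions of coding exons.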

Additional observations from a re-analysis of the deposited data

Results flagged for a closer look

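In groups of 4 to 10 libraries of 1 region and age, 15 of 85 groups of the featured collagens held a library set apart from the rest. The gap had to exceed Dixon's 95% critical value, which about 1 in 20 groups of independent normal values do. CPM levels need not be normal, and groups of different genes share libraries, so that rate is no fair reference here. Type I collagen accounts for most of the 15 groups. Col1a1 in the olfactory bulb was at 626 CPM in mouse 46 at 15 months and at 69.4 CPM in mouse 11 at 26 months, and Col1a2 was at 402 and 60.7 CPM in the same 2 libraries. In the cerebellum Col1a1 was at 103 CPM in mouse 33 at 3 months, 15.5 CPM in mouse 46 at 15 months and 62.9 CPM in mouse 27 at 18 months. Col1a2 in the medulla was at 34.2 CPM in mouse 29 at 3 months and at 17.7 CPM in mouse 2 at 26 months.

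Among the others, Col3a1 in the olfactory bulb was at 9.34 CPM in mouse 1 at 12 months and Col16a1 in the medulla at 25.1 CPM in mouse 50 at 15 months. Col11a1 in the thalamus was at 11.0 CPM in mouse 2 at 26 months. Low libraries were those of Col9a3 in the cerebellum (mouse 3 at 12 months, 23.3 CPM) and of Col20a1, a fibril-associated chain, in the olfactory bulb (mouse 20 at 21 months, 0 CPM). Col20a1 was also set apart in mouse 43 at 18 months, at 1.11 CPM.

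By the tests of the difference itself, the age slope of Col1a1 in the cerebellum differed between the sexes (-0.403 per month, males minus females). As given above, that difference was far smaller without the bone-limit libraries of the cerebellum. Slopes that differed from the mean of the other regions were those of Col11a1 in the thalamus (-0.0762) and the entorhinal cortex (0.0578), Col2a1 in the cerebellum (-0.0465), Col5a3 in the thalamus (-0.0526) and Col6a3 in the corpus callosum (0.0621). Without the library of mouse 52 the slope of Col11a1 within the entorhinal cortex was 0.0013 in place of 0.030. The causes were not tested.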

How the results depend on the processing

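Of the counts and class shares under all alternatives, 399 stayed within 1.5 times or 1 SD of the reported value and 39 did not. Slopes from 3 to 28 months numbered 15 rises in mice 16 to 56 alone, and 49 falls with the fibroblast covariate and 15 in males alone. From 12 months on there were 7 rises and 2 falls in males alone and 10 falls with the fibroblast covariate. Against 3 months, males alone gave 1 higher and 10 lower at 12 months, 0 and 2 at 15, 3 and 5 at 18, and 5 and 9 at 21 months. Without the bone-limit libraries 2 were lower at 15 and 4 at 18 months, where DESeq2 gave 6. In the test of sex, 4 were higher in males with the bone covariate, and 1 in mice 16 to 56 alone and 1 without the filter. Lower in males were 1 with the 12-month mice, 5 with the bone covariate, 3 in mice 16 to 56 alone and 5 without the bone-limit libraries. The slope by sex gave 0 lower with the bone covariate, 0 without those libraries and 2 without the filter, against 40 at an unadjusted p below 0.05 in the reported fit. Per coding length the others held 73.6% of the collagen sum. The replicate block (the mouse) gave 266 higher and 281 lower levels, and 4 higher and 6 lower slopes between regions. In that fit Col11a1 in the entorhinal cortex, Col1a1 in the visual cortex and Col6a6 in the hypothalamus were not called. It used the Wald form of the test as well as the block, and the part of each in these losses was not tested.

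Leaving out 1 mouse gave 25 to 32 rises and 22 to 35 falls from 3 months, and 12 to 18 and 5 to 11 from 12 months (11 without mouse 2). Against 3 months it gave 2 to 4 higher and 15 to 28 lower at 12 months, 3 to 4 and 4 to 9 at 15, 2 to 7 and 6 to 12 at 18, 12 to 21 and 18 to 30 at 21, 11 to 17 and 7 to 13 at 26, and 14 to 23 and 4 to 13 at 28 months. At 12 months 2 were higher without mouse 25 or 29. From 12 months on it turned the sign of Col1a1 (-0.0051 to 0.022), Col1a2 (-0.016 to 0.0068) and Col4a1 (-0.0017 to 0.00047) in the olfactory bulb and of Col23a1 in the cerebellum (-0.0029 to 0.0030), none of them called.

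Signs turned in single slopes. Col1a1 in the cerebellum from 3 months was -0.014 with the bone, -0.018 with the choroid plexus, -0.076 with the depth and -0.099 with the fibroblast covariate, -0.086 in males alone and -0.018 without the bone-limit libraries. Col1a1 in the olfactory bulb was 0.0069 without those libraries. From 12 months, Col1a1 was -0.018 (fibroblast) and -0.00049 (males) in the anterior hippocampus, -0.011 (fibroblast) in the olfactory bulb and -0.0097 (males) in the cerebellum. Col1a2 in the olfactory bulb was -0.0032 (DESeq2), -0.0049 (bone) and -0.022 (fibroblast), and Col4a1 there 0.00032 (DESeq2), 0.0042 (males) and 0.0024 (no bone libraries). Col23a1 in the cerebellum was 0.0021 (choroid plexus), 0.0077 (males) and 0.00074 (no bone libraries). Col1a1 between the sexes in the olfactory bulb was 0.0094 (bone), and Col11a1 in the entorhinal cortex against other regions -0.0015 (males). The causes were not tested. Of the 58 slopes called from 3 to 28 months, 15 were called in all 11 alternatives and without each of 18 mice. Depth limits the low chains: at the median of 1688 collagen reads per library, levels near 1 CPM rest on few reads.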

Other observations

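Rises from 12 months on that the account above does not name were Col24a1 in the pons (0.13 log2 per month, adjusted p = 0.00536), Col4a6 (0.055, adjusted p = 0.0416) and Col11a2 (0.029, adjusted p = 0.017) in the choroid plexus, and Col9a3 in the medulla (0.024, adjusted p = 0.0367) by edgeR's quasi-likelihood test. Col3a1 in the hypothalamus (-0.10, adjusted p = 0.0268) and Col27a1 in the medulla (-0.049, adjusted p = 0.0435) fell over those ages. Col20a1, a fibril-associated chain, had a slope below 0 in each of the 13 regions where it was tested from 3 to 28 months, and fell in the olfactory bulb (-0.023, adjusted p = 0.0106) and the cerebellum (-0.023, adjusted p = 0.0441). The first of these calls was lost without the bone-limit libraries, and the second without any of 11 mice.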
